A study of Mus musculus with 53 samples.

Results

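Dnmt3a, Dnmt3b, Dnmt3l, Tet1 and Tet2 are the 5 genes described here, out of 21755 protein-coding genes scored in every library, and they were chosen by name as the de novo DNA methyltransferase family and the members of the TET dioxygenase family taken up for these cells. For each gene every deposited peak overlapping the gene body plus 50 kb on each side was collected. The data came from CUT&RUN, in which an antibody directs micrococcal nuclease to cut out the DNA around a bound protein or a modified histone, so that peaks mark where SOX2, GATA6, H3K27ac or H3K4me1 was found. All cells were the SGGC line, a mouse embryonic stem cell line (E14JU) in which endogenous SOX2 is fused to GFP and endogenous GATA6 to mCherry, and every group carries both reporters. The material comprised clones B9 and B12 of that line.

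5 populations were compared. 2iLIF and NACL are cultures of naive pluripotent cells in defined media, and nEnd is naive endoderm, a culture resembling primitive endoderm, the extra-embryonic lineage that GATA6 specifies. KOSR cultures were sorted by reporter fluorescence into SOX2+ cells, which carried SOX2-GFP alone, and double positive (DP) cells, which carried SOX2-GFP together with GATA6-mCherry. Of 53 libraries, 18 were IgG controls without a peak list of their own, 33 lists could be placed in a population, and 2 histone lists could not, because the title and the source name of each gave different populations. The 2 lists without a population are given apart. All KOSR libraries were made from clone B12 and both nEnd H3K4me1 libraries from clone B9, so the populations are not balanced for clone, and fits with the clone as a block are given where they change a call. Replicates were separate clones or separate experiments, and no label ties them to independently derived lines.

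DNMT3A and DNMT3B place new methyl groups on cytosine, and DNMT3L, which has lost catalytic activity, binds and stimulates both. TET1 and TET2 oxidise 5-methylcytosine and so begin its removal. Naive embryonic stem cells hold little DNA methylation, TET1 and TET2 are the family members they mainly use, and DNMT3L is a known marker of pluripotent cells and of the early embryo. H3K4me1 marks enhancers in general, and H3K27ac marks active enhancers and promoters.

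Sequences at the SOX2 and GATA6 sites that the comparisons turn on are printed first, 1 for each gene. Each is 300 bases of the plus strand of GRCm38 (mm10), centred on the maximum of the highest-ranked DP peak of the region, and capitals mark matches on either strand to AGATAA, the motif of GATA factors, or to CATTGT, the motif of SOX factors. The Dnmt3a window is chr12:3890050-3890349, 84.2 kb into the gene in an intron, the only such site besides 1 at Dnmt3b where each factor was found in at least 2 DP libraries. The Dnmt3b window is chr2:153625820-153626119, at -23.5 kb from the gene's start (minus is upstream) in an intron of the neighbouring Commd7, where GATA6 was found in all 5 GATA6 libraries. The Dnmt3l window is chr10:78048289-78048588, 6.49 kb into the gene in an intron, where SOX2 was found in all 10 SOX2 libraries. The Tet1 window is chr10:62907109-62907408, 1.74 kb into the gene in an intron, a GATA6 site chosen after its values were seen. The Tet2 window is chr3:133549683-133549982, at -4.69 kb in intergenic sequence, a GATA6 site next to SOX2 peaks of other populations.
Dnmt3a +84.2 kb: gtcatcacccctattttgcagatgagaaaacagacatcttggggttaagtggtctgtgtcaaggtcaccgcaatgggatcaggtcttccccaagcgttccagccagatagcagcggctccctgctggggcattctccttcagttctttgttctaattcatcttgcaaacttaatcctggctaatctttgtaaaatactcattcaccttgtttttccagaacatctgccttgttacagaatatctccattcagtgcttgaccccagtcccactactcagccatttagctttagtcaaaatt
Dnmt3b -23.5 kb: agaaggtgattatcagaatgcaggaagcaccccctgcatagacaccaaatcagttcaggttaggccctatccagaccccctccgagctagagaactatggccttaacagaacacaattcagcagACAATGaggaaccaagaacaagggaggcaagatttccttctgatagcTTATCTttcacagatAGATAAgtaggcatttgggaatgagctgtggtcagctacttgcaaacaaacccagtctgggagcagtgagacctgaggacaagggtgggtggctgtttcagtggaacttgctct
Dnmt3l +6.49 kb: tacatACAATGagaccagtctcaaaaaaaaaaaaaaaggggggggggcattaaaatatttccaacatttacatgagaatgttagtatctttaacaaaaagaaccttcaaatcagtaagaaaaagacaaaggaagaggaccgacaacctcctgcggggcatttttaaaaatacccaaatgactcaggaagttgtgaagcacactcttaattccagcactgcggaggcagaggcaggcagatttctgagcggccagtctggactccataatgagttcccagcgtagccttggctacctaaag
Tet1 +1.74 kb: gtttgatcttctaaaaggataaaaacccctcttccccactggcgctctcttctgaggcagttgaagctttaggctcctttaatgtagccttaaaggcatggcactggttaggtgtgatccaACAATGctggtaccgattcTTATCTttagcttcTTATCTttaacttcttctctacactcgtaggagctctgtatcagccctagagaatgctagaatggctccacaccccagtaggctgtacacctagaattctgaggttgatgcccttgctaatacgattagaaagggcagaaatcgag
Tet2 -4.69 kb: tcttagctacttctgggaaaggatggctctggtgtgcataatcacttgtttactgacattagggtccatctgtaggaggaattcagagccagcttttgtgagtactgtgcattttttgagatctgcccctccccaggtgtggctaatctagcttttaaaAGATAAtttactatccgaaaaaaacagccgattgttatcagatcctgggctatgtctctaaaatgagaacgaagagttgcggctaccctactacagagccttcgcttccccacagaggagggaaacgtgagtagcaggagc

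The Dnmt3b window held 2 AGATAA matches and 1 CATTGT match, and the Tet1 window likewise held 2 AGATAA matches and 1 CATTGT match. The Dnmt3l window held 1 CATTGT match, the Tet2 window 1 AGATAA match and the Dnmt3a window neither. Among windows of the same length at all 72577 merged SOX2 and GATA6 regions of the series, 37.9% held AGATAA, 31.8% held CATTGT and 4.36% held the OCT motif ATGCAAAT, which none of the 5 windows held. A match describes the letters alone, and the absence of one says nothing about the factor.

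On the mm10 assembly Dnmt3a (ENSMUSG00000020661) lies on the plus strand at chr12:3806007-3914443, Dnmt3b (ENSMUSG00000027478) on the plus strand at chr2:153649450-153687730, and Dnmt3l (ENSMUSG00000000730) on the plus strand at chr10:78041947-78063622. Tet1 (ENSMUSG00000047146) lies on the minus strand at chr10:62804570-62908996 and Tet2 (ENSMUSG00000040943) on the minus strand at chr3:133463679-133545139. The windows are not private to these genes except at Tet2, which has no protein-coding neighbour within 50 kb. Dtnb, Pomc and Efr3b overlap the Dnmt3a window, Commd7 and Dnmt3c the Dnmt3b window, Pfkl, Aire and Icosl the Dnmt3l window, and Ccar1, Slc25a16 and Dna2 the Tet1 window. A peak there was not assigned to either gene.

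A locus percentile was used throughout. It places the maximum signal of the strongest peak in a gene's window among those of all 21755 genes in the same library, with 100 the highest. Every library of an antibody was first held to the same number of its strongest peaks, the size of the shortest list, which was 13514 for H3K27ac, 18627 for H3K4me1, 1378 for SOX2 and 1391 for GATA6. A gene with no peak among those kept shares 1 low percentile with all other such genes of its library, which was between 17.01 and 25.2 for H3K27ac and about 45 for SOX2 and GATA6. The lists themselves differed with the population. H3K27ac lists held 210904 to 401853 peaks in 2iLIF and NACL, 13514 and 14722 in SOX2+ cells, 76260 in DP cells, and 20072 and 21394 in nEnd, and SOX2 lists held 8203 to 29623 peaks in the pluripotent populations and 1378 to 5320 in DP cells. The number of peaks called and the population cannot be told apart.

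Pluripotency and endoderm marker genes followed the labels in H3K27ac. The median locus percentile of the 6 pluripotency markers was 87.1 to 96.6 in the 6 pluripotent libraries, 94.7 in the DP library, and 54.3 and 68.7 in nEnd. That of the 6 endoderm markers was 17.7 to 25.2 in the same 6, at the level of genes without a kept peak, 61.6 in the DP library, and 85.3 and 87.1 in nEnd. In H3K4me1 the endoderm median was 93.6 and 97.3 in nEnd and 35.8 to 67.8 in the pluripotent libraries, but the pluripotency median was 71.3 in 1 nEnd library and 94.1 in the other, within the 92.2 to 94.6 of the pluripotent libraries. A mixture with a different share of marked cells and a different signal per cell cannot be told apart in these bulk libraries, and the part that endoderm-marked cells take in any DP value was not tested.

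H3K27ac at the Dnmt3 genes asked whether the methyltransferase loci gain or lose active-enhancer signal between naive pluripotent cells and endoderm. Dnmt3b and Dnmt3l were higher in nEnd than in naive cells and Dnmt3a did not pass the test. Dnmt3l was also higher in SOX2+ cells than in naive cells.

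At Dnmt3l no peak was among the strongest 13514 of either 2iLIF library. Its percentile was 57.4 and 78.9 in NACL, 86.6 and 96.1 in SOX2+ cells, 94.0 in the single DP library, and 75.6 and 80.6 in nEnd. The lowest SOX2+ value lay above every NACL and nEnd value, while nEnd and NACL overlapped. Differences were tested with limma on the normal score of the rank, a scale on which 1 unit is 1 standard deviation of a normal distribution of genes within a library. On that scale Dnmt3l was 0.957 ± 0.270 (SE) higher in nEnd than in the mean of 2iLIF and NACL (adjusted p = 0.0261) and 1.62 ± 0.270 (SE) higher in SOX2+ cells (adjusted p = 0.0243), with 2 libraries in each population. With the clone as a block the SOX2+ difference was 1.53 and no longer passed (adjusted p = 0.0669).

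The place of the Dnmt3l signal differed between populations. In all 8 H3K27ac libraries outside nEnd, the strongest peak of the window lay 6.23 to 7.22 kb into Dnmt3l, next to the SOX2 site printed above. In both nEnd libraries it lay at -37.06 and -37.15 kb, in an intron of Pfkl, which encodes the liver form of phosphofructokinase. With the window cut to the gene body plus 5 kb, the nEnd difference was -0.41 (adjusted p = 0.361), so the nEnd call belongs to the Pfkl peak and not to the Dnmt3l gene body.

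At Dnmt3b no peak was kept in either 2iLIF library. In NACL the percentile was 42.2 in clone B12, with no kept peak in clone B9, and in SOX2+ cells it was 54.2 in 1 experiment, with no kept peak in the other. The DP library stood at 82.8, and nEnd at 47.2 and 81.9. Each nEnd value lay above all 4 naive values, and nEnd was higher by 1.12 ± 0.351 (SE, 2 libraries, limma adjusted p = 0.0386). Both nEnd maxima lay at the region whose sequence is printed (-23.5 and -23.6 kb), whereas the DP maximum lay at -37.7 kb.

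At Dnmt3a the H3K27ac percentile stayed under 60 in every library. A kept peak was found in NACL clone B9 at percentile 49.6, in both SOX2+ libraries at 57.7 and 58.1, in the DP library at 47.3, and in no 2iLIF or nEnd library. The SOX2+ difference from naive cells was 0.86 (adjusted p = 0.0738) and the nEnd difference -0.27 (adjusted p = 0.412). The SOX2+ difference passed by total signal (1.43, adjusted p = 0.0296) and without the filter on genes (adjusted p = 0.0264).

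The calls need their background and their limits. In nEnd against naive cells 18.8% of the 16195 genes tested were higher and 18.4% lower, beside 2 higher and 1 lower of the 5 genes, and in SOX2+ against naive cells 2.45% were higher, beside 1 of the 5. The median difference of the 5 genes was -0.27 in nEnd and 0.72 in SOX2+ cells, against -0.05 and -0.02 over all genes tested. Both Dnmt3 calls in nEnd were lost without either 2iLIF library, without NACL B9 or without nEnd B12. The Dnmt3l call was lost also without nEnd B9. Without NACL B12 the Dnmt3a difference in nEnd was -0.50, with NACL B9 the only naive library that kept a Dnmt3a peak. The Dnmt3b call was also lost by total signal (adjusted p = 0.0520), with all peaks (0.0785), without the filter (0.0689) and on the percentile scale (0.0540), and the Dnmt3l call by total signal (0.133). The Dnmt3l call in SOX2+ cells was lost without either 2iLIF library, either SOX2+ library or NACL B9. Without NACL B9 the Dnmt3a difference was 1.09, but only the SOX2+ libraries then kept a Dnmt3a peak, so that value is a description.

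**Figure D1:**
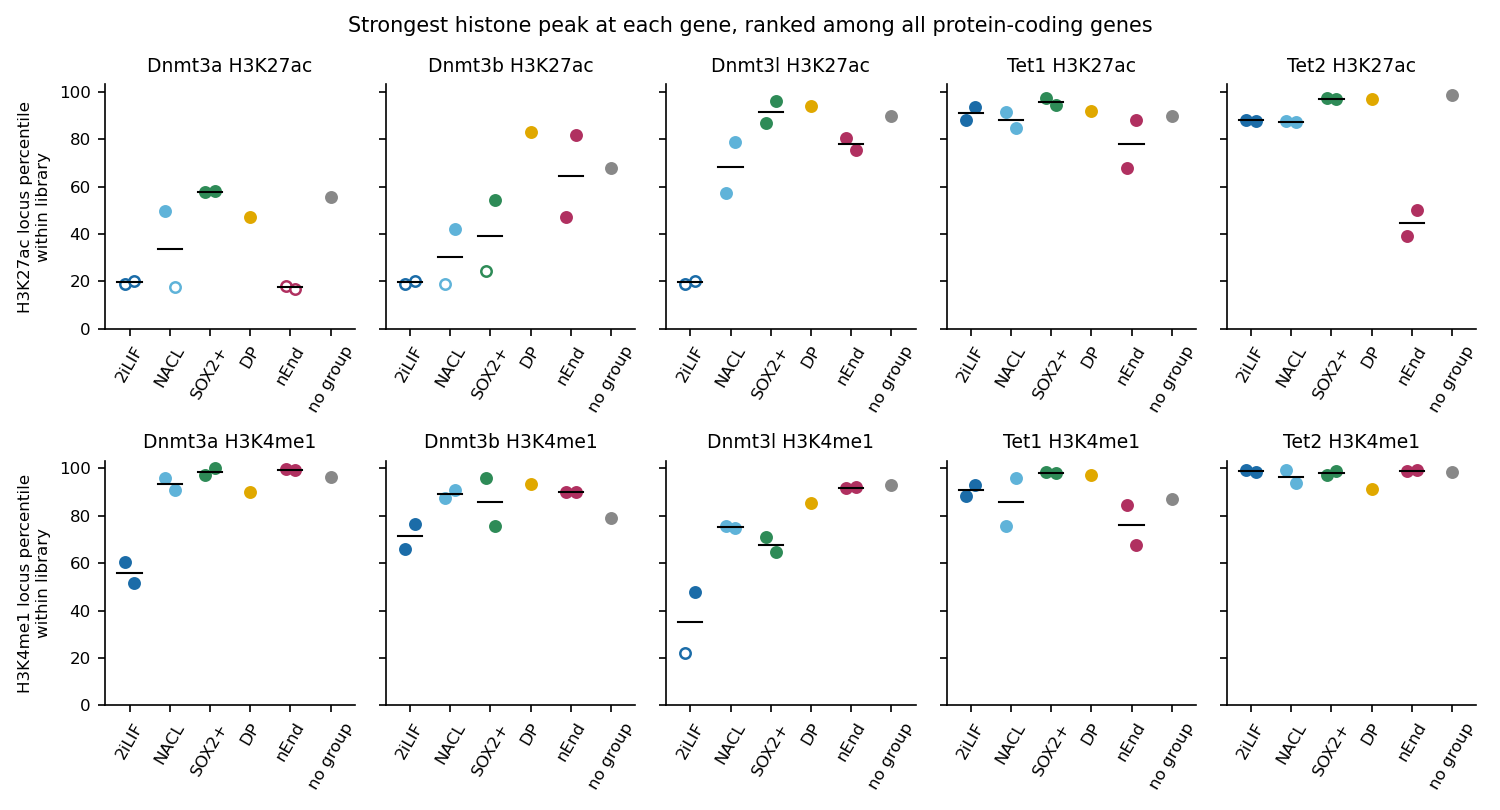
Locus percentile of each gene (vertical axis, 0 to 100, highest signal at the top) in each H3K27ac and H3K4me1 library, grouped by population on the horizontal axis, with every library held to the same number of strongest peaks. Each circle is 1 library, an open circle has no peak among those kept, bars are means of 2 libraries, and grey circles are the libraries without a population. For H3K27ac Dnmt3l has no kept peak in 2iLIF and stands at 86.6 and 96.1 in SOX2+ cells, and Tet2 stands at 39.2 and 50.1 in nEnd.

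H3K4me1 at the Dnmt3 genes was compared in the same way. Dnmt3a and Dnmt3l were higher in nEnd than in naive cells, and Dnmt3a was higher in SOX2+ cells. Dnmt3b did not pass the test in either comparison.

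At Dnmt3a H3K4me1 stood at percentiles 51.6 and 60.4 in 2iLIF, 90.6 and 96.0 in NACL, 97.0 and 99.9 in SOX2+ cells, 90.1 in the DP library, and 99.2 and 99.5 in nEnd. Both 2iLIF values lay below all others, and nEnd and SOX2+ lay above NACL and overlapped each other. The difference from naive cells was 1.66 ± 0.378 (SE) in nEnd (adjusted p = 0.0145) and 1.66 ± 0.378 (SE) in SOX2+ cells (adjusted p = 0.0447). With the clone as a block these were 1.49 (adjusted p = 0.0518) and 1.83 (adjusted p = 0.0870), so both calls were lost. By the total signal of the peak the nEnd difference was 0.18 (adjusted p = 0.492). The H3K27ac percentiles of Dnmt3a in nEnd, where no peak was kept, stand beside H3K4me1 percentiles above 99.

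At Dnmt3l H3K4me1 had no kept peak in 2iLIF clone B9 and stood at 48.0 in clone B12, at 74.6 and 75.4 in NACL, 64.6 and 71.1 in SOX2+ cells, 85.4 in the DP library, and 91.7 and 91.9 in nEnd. The nEnd values lay above all others with a population, and the difference from naive cells was 1.26 ± 0.274 (SE, adjusted p = 0.0122), or 1.43 with the clone as a block (adjusted p = 0.0212). Within 5 kb of the start site the difference was -1.10, and over the gene body plus 5 kb it was 0.66 (adjusted p = 0.141). The strongest nEnd peaks of the window lay at -35.6 and -35.7 kb, in an intron of Pfkl, so the call is not one at the Dnmt3l gene body. At Dnmt3b H3K4me1 stood at 66.1 and 76.6 in 2iLIF, 87.2 and 90.6 in NACL, 75.6 and 96.0 in SOX2+ cells, 93.4 in the DP library, and 90.0 and 90.1 in nEnd, and NACL, SOX2+ and nEnd overlapped.

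Of 16758 genes tested, 15.4% were higher in nEnd, beside 2 of the 5 genes, and 3.47% were higher in SOX2+ cells, beside 1 of the 5. Both nEnd calls were lost without either nEnd library, the Dnmt3a call also without 2iLIF B12, and the SOX2+ call was lost without any 1 of the 8 libraries. NACL against 2iLIF gave no call for any of the 5 genes by limma in either mark, where 0.0988% of genes tested for H3K27ac and 0.459% for H3K4me1 were called in either direction. At an unadjusted p under 0.05 the counts were 1 of 5 for H3K27ac and 2 of 5 for H3K4me1, beside 11.9% and 16.5% of all genes tested. The largest of these differences were at Dnmt3l in H3K27ac (1.35, adjusted p = 0.122) and at Dnmt3a in H3K4me1 (1.38, adjusted p = 0.164).

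SOX2 at the Dnmt3 genes was compared between DP cells and the 7 pluripotent libraries (2iLIF, NACL and SOX2+). Dnmt3l was higher in DP cells. Dnmt3a and Dnmt3b overlapped between the groups.

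At Dnmt3l the SOX2 percentile was 95.7, 96.4 and 96.9 in the 3 DP libraries and 91.3, 92.5 and 95.6 in the 3 SOX2+ libraries. It was 93.8 in NACL clone B12, and neither the other NACL library nor either 2iLIF library kept a peak. Each DP value lay above every pluripotent value, and the groups differed by 23.4 percentile points (two-sided exact permutation p = 0.0167, which is the lower bound for 3 against 7 libraries). Against SOX2+ cells alone the difference was 3.18 points (exact permutation p = 0.1, the smallest possible). Groups did not overlap with DP higher at 9.4% of 3277 genes in the first comparison and at 15.5% of 2639 genes in the second, beside 1 of the 4 genes tested in the first (all but Tet1) and 1 of the 3 tested in the second (Dnmt3a, Dnmt3b and Dnmt3l). The first difference was 11.3 points with all peaks and 14.98 points without the shortest list, since 3 pluripotent libraries stood at the level of genes without a kept peak. By the total signal of the peak DP and pluripotent cells overlapped (exact permutation p = 0.05), and within 5 kb of the start site, which leaves the peak out, Dnmt3l could not be tested.

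A single region carried SOX2 in every library. The region at chr10:78048029-78048724 held a SOX2 peak in 2 of 2 2iLIF, 2 of 2 NACL, 3 of 3 SOX2+ and 3 of 3 DP libraries, at -1.40 kb from the start of another annotated transcript, Dnmt3l-201. The peak ranked 390 of 4859, 506 of 5320 and 593 of 1378 in DP cells, 640 of 20609, 1154 of 10513 and 1357 of 16819 in SOX2+ cells, 985 of 17111 and 2664 of 29623 in NACL, and 4517 of 8203 and 8818 of 13177 in 2iLIF. It was thus past the middle of both 2iLIF lists and near the top of the NACL and SOX2+ lists. GATA6 was found there in DP experiment A at rank 4080 of 8316 and in nEnd clone B12 at rank 18091 of 32510, with maxima at 6.23 and 6.27 kb, and H3K27ac was found in 1 of 2 2iLIF, 2 of 2 NACL, 2 of 2 SOX2+, the DP and 1 of 2 nEnd libraries.

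At Dnmt3b SOX2 was spread over several sites. Kept peaks gave a percentile of 93.4 in 2iLIF clone B12, 93.0 in NACL clone B12, 93.9 and 96.8 in 2 SOX2+ libraries and 94.9 in DP experiment B, and the remaining 5 libraries kept none. DP and pluripotent cells overlapped (exact permutation p = 0.683). Without DP experiment B they did not, but neither remaining DP library kept a peak, nor did some pluripotent libraries. That setting therefore gives Dnmt3b no direction. The Commd7 intron at -26.7 kb held SOX2 in all 7 pluripotent and 2 of 3 DP libraries and GATA6 in none. The site at -37.8 kb held SOX2 in 2 NACL, 3 SOX2+ and 2 DP libraries, and the site at -6.25 kb in 2 NACL and 3 SOX2+ libraries with no DP library.

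GATA6 was found most strongly at -23.5 kb from Dnmt3b. The region at chr2:153625541-153626294 held GATA6 in 3 of 3 DP and 2 of 2 nEnd libraries, at ranks 184 of 1391, 300 of 3821 and 441 of 8316 in DP cells and 262 of 32510 and 1225 of 24223 in nEnd. The label of the library with 8316 peaks (DP experiment A) carries a suffix, sub02, whose meaning is not stated, so its list length and ranks may not be comparable with those of the others. SOX2 was found there in no pluripotent library and in 2 of 3 DP libraries, at the low ranks of 3637 of 5320 and 3663 of 4859. H3K27ac was found there in 2 of 2 nEnd, the DP and 1 of 2 NACL libraries, and H3K4me1 in 2 of 2 nEnd and the DP library and in none of the 6 pluripotent H3K4me1 libraries. The locus percentile of Dnmt3b for GATA6 was 96.5, 97.7 and 98.6 in DP cells and 91.0 and 97.9 in nEnd, which overlapped (exact permutation p = 0.6) unless nEnd clone B12 was left out. A further 9 of the 16 SOX2 or GATA6 regions at Dnmt3b held GATA6 in nEnd and in no DP library, but 8 of these had it in clone B12 alone, which has the longer list, and 1, at 14.9 kb, in both clones.

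At Dnmt3a SOX2 and GATA6 met at a single intronic region, chr12:3889669-3890630. SOX2 was found there in 1 of 2 2iLIF, 2 of 2 NACL, 3 of 3 SOX2+ and 2 of 3 DP libraries, and GATA6 in 2 of 3 DP and 2 of 2 nEnd libraries. The SOX2 maxima lay at 84.16 to 84.19 kb, and the GATA6 maxima at 84.14 kb in 1 DP library and at 84.42 to 84.47 kb in the other 3, past the printed bases. H3K27ac and H3K4me1 peaks covered the region in every library with a population. The locus percentile overlapped between DP and pluripotent cells (exact permutation p = 0.6), with a kept SOX2 peak in 1 DP library at 93.2 and 1 SOX2+ library at 92.1. The only other region of the Dnmt3a window, 82.2 kb into the gene, held GATA6 in 2 DP libraries and no SOX2.

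The Dnmt3a region and the Dnmt3b region at -23.5 kb were the only 2 of the 51 SOX2 or GATA6 regions at the 5 genes with each factor in at least 2 DP libraries, beside 1.37% of all 72577 regions. Neither remained when only the stronger 50% of each list was used. No Dnmt3l, Tet1 or Tet2 region met that count.

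**Figure D2:**
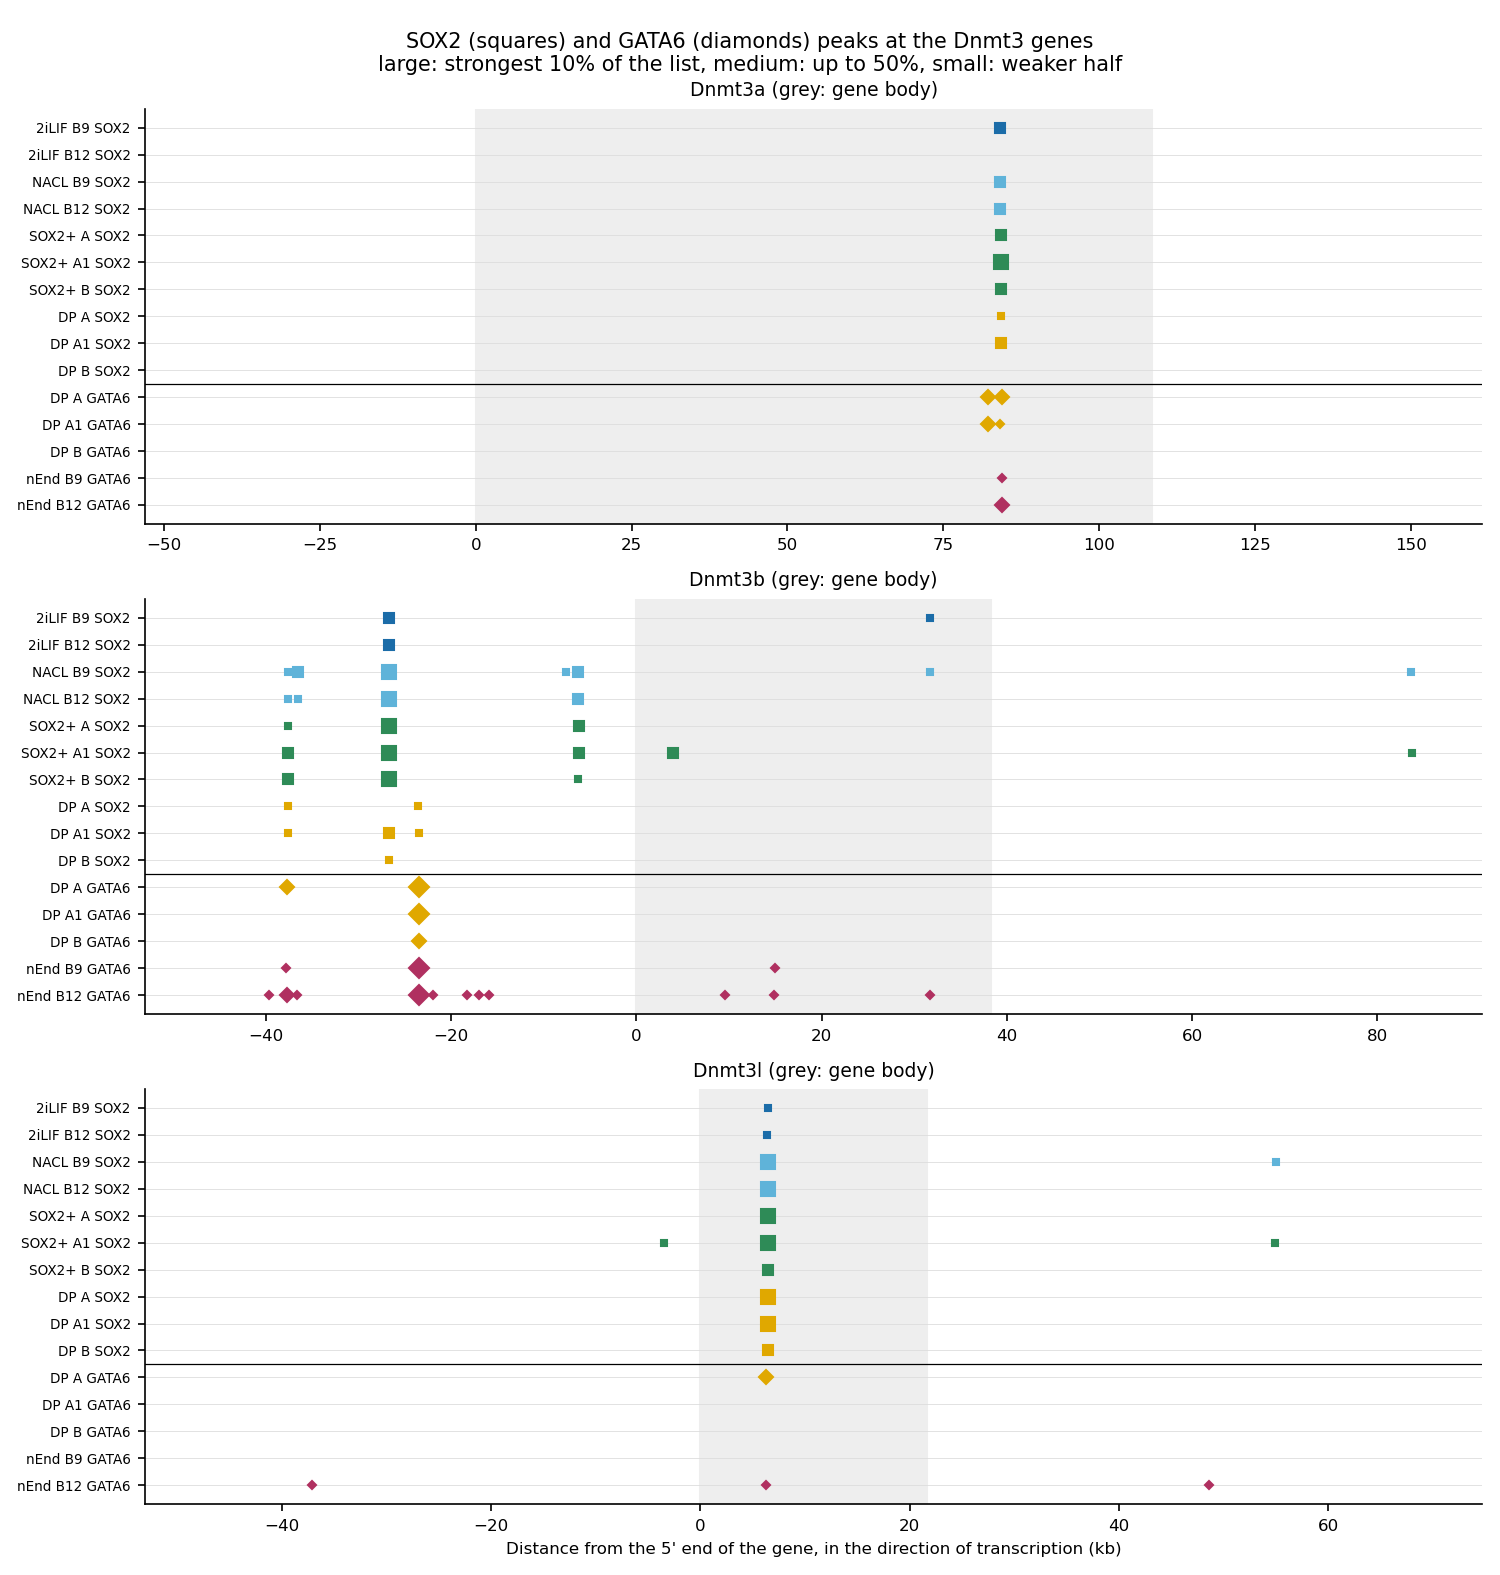
Map of SOX2 peaks (squares) and GATA6 peaks (diamonds) at Dnmt3a, Dnmt3b and Dnmt3l, with distance from the gene's start in kb on the horizontal axis and 1 row per library, coloured by population. Large symbols are in the strongest 10% of the library's list, medium symbols in the strongest 50%, small symbols are weaker, and the grey bar is the gene body. The Dnmt3l site at 6.49 kb is filled in all 10 SOX2 libraries, and the Dnmt3b site at -23.5 kb in all 5 GATA6 libraries.

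H3K27ac at the Tet genes was high in all pluripotent populations. Tet2 was lower in nEnd. Tet1 did not pass the test in the 50 kb window but was lower in nEnd over the gene body and by total signal.

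At Tet2 the H3K27ac percentile was 87.6 and 88.1 in 2iLIF, 87.2 and 87.5 in NACL, 96.8 and 97.2 in SOX2+ cells, 96.7 in the DP library, and 39.2 and 50.1 in nEnd. Both nEnd values lay below every other library, and both SOX2+ values lay above every naive value. nEnd fell by 1.29 ± 0.18 (SE) against naive cells (limma adjusted p = 0.00172), and the call stood without each of the 8 libraries in turn and with the clone as a block (adjusted p = 0.00317). SOX2+ cells were 0.72 higher than naive cells and missed the threshold (adjusted p = 0.0582), which over the gene body plus 5 kb was 0.69 (adjusted p = 0.0301). H3K27ac peaks covered 47.3% to 61.7% of the Tet2 window in 2iLIF and NACL, 14.1% and 14.5% in SOX2+ cells, 18.1% in DP cells, and 4.08% and 11.6% in nEnd, a measure that moves with the length of the list.

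At Tet1 the percentile was 88.1 and 93.6 in 2iLIF, 84.9 and 91.5 in NACL, 94.2 and 97.2 in SOX2+ cells, 92.0 in the DP library, and 68.0 and 87.9 in nEnd. nEnd overlapped the naive libraries, and the difference was -0.46 (adjusted p = 0.209). The strongest nEnd peak of the window lay 116 kb from the start of Tet1, in intergenic sequence beyond the end of the gene, in both libraries. Over the gene body plus 5 kb, which leaves that peak out, nEnd fell by 1.52 (adjusted p = 0.00685). In the 50 kb window by the total signal of the peak it fell by 1.35 (adjusted p = 0.00959).

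H3K4me1 at the Tet genes gave no call by limma, and 0 of these values passed an unadjusted p of 0.05. Tet2 stood at 98.2 and 99.4 in 2iLIF, 93.8 and 99.0 in NACL, 97.0 and 98.6 in SOX2+ cells, 91.4 in the DP library, and 98.9 and 99.0 in nEnd, so all 9 libraries with a population lay above percentile 91. Tet2 in nEnd thus combined H3K4me1 at 98.9 or higher with H3K27ac at or below 50.1. By the total signal of the peak, however, Tet2 H3K4me1 was lower in nEnd (-1.26, adjusted p = 0.0138). Tet1 stood at 88.4 and 92.9 in 2iLIF, 75.4 and 96.0 in NACL, 97.9 and 98.2 in SOX2+ cells, 97.2 in the DP library, and 67.5 and 84.5 in nEnd, and nEnd overlapped NACL.

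SOX2 at the Tet genes was found at many sites in pluripotent cells and at few in DP cells. None of the 12 regions at Tet1 with SOX2 in a pluripotent library had it in a DP library, and 1 of the 10 such regions at Tet2 did, in a single library. Over the whole genome 14.3% of 38823 such regions had SOX2 in a DP library. The DP lists are the shortest, and the comparison depends on how that is handled.

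When all peaks of each list were used, the Tet2 percentile for SOX2 was 36.8 to 73.4 in the 3 DP libraries. In the 7 pluripotent libraries it was 77.9 to 95.5, without overlap. Among DP libraries only experiment A1 held a Tet2 peak, at rank 5053 of 5320, and the others stood at the level of genes without one. Tet2 thus entered through its pluripotent peaks, and the value is a description. Tet1 gave 36.3 to 45.6, the level of genes without a peak, in DP cells and 60.1 to 79.3 in pluripotent cells, which is a description, because Tet1 entered through its pluripotent peaks alone. DP cells were lower without overlap at 11.7% of 15444 genes under this setting, beside Tet2 and Tet1 of the 5 genes. With lists cut to equal numbers of 1378 peaks, Tet1 had no kept peak in any of the 10 libraries and was not tested. Tet2 kept a peak in both 2iLIF libraries alone, at 95.3 and 95.5. It entered through these libraries, so the value is again a description.

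Leaving out the shortest DP list allowed 4859 peaks a library. Tet2 then kept a SOX2 peak in 7 of 7 pluripotent libraries, at 77.9 to 95.5, and in neither DP library (exact permutation p = 0.0556, the smallest that 2 against 7 can give), where 20.7% of 8243 genes were lower without overlap. Tet1 kept a peak in NACL clone B9 alone, at 79.3. That share stands beside 1 of the 4 genes tested (all but Tet1), and Tet2 entered this comparison through its pluripotent peaks alone, so the value is a description. The lower SOX2 values of Tet1 and Tet2 in DP cells and the shorter DP lists cannot be told apart.

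**Figure D3:**
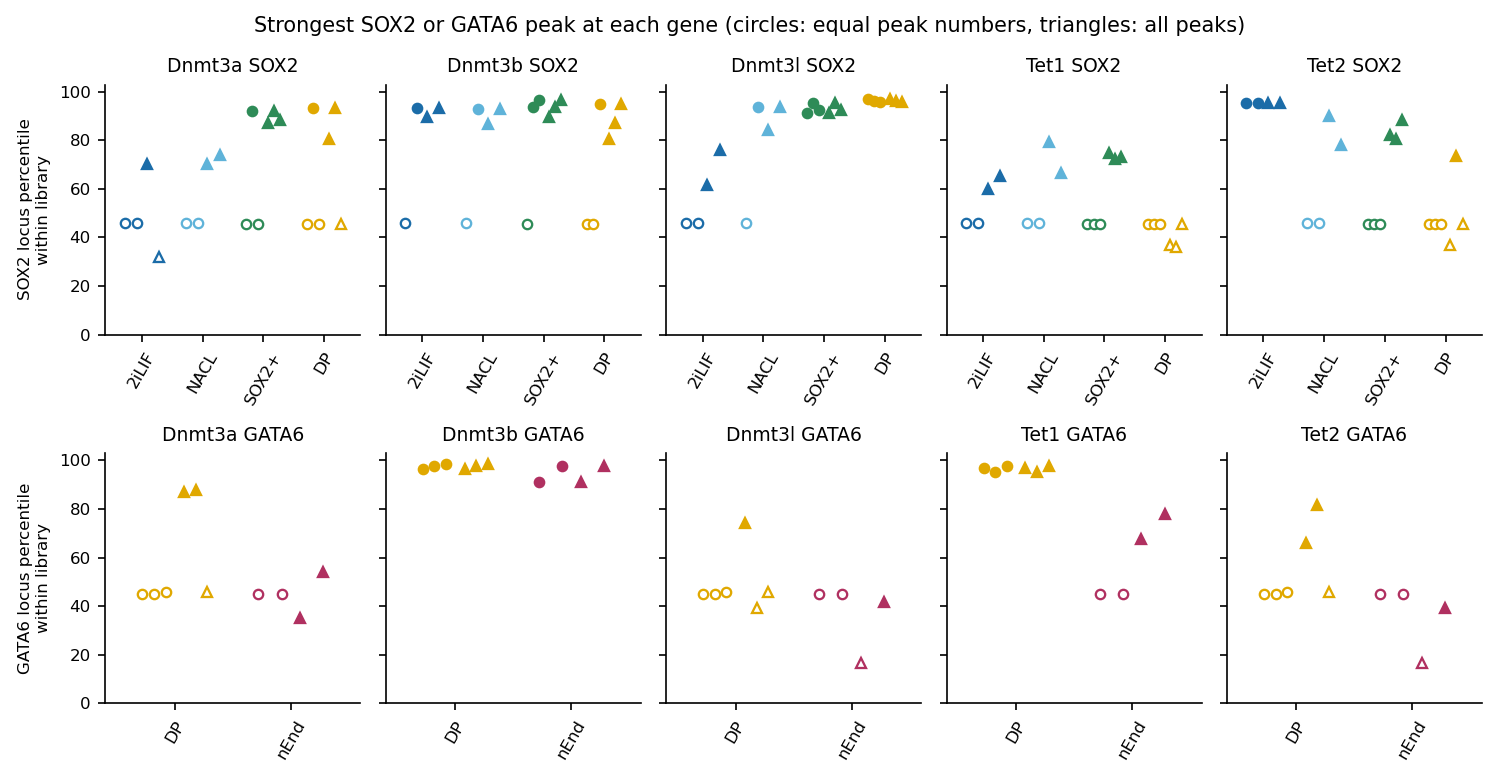
Locus percentile of each gene (vertical axis, 0 to 100) in each SOX2 and GATA6 library, grouped by population on the horizontal axis. Circles use equal numbers of strongest peaks, triangles use all peaks, and open symbols have no peak. The 3 DP circles of Dnmt3l for SOX2 lie at 95.7 to 96.9, above all 7 pluripotent circles, and the 3 DP triangles of Tet2 lie below all 7 pluripotent triangles.

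Tet2 sites with SOX2 in pluripotent cells and not in DP cells differed in the libraries that listed a histone peak there. SOX2 was found 20.3 kb into Tet2, and also at -32.4 and -45.7 kb, in all 7 pluripotent libraries and no DP library. At the site 20.3 kb into the gene H3K27ac was found in every 2iLIF, NACL, SOX2+ and DP library and in no nEnd library. At both upstream sites H3K27ac was found in every 2iLIF and NACL library and in no SOX2+, DP or nEnd library. These counts use whole lists, and H3K27ac lists were far longer in 2iLIF and NACL. List length and population cannot be told apart there. H3K4me1 at -45.7 kb was found in every 2iLIF, NACL, SOX2+ and DP library and in no nEnd library. At -32.4 kb it was found in 1 2iLIF, 1 SOX2+ and the DP library. The site 10.96 kb into the gene was the 1 with DP SOX2, at rank 5053 of 5320 in experiment A1, and its SOX2 peaks were otherwise in 1 of 2 2iLIF, 2 of 2 NACL and 3 of 3 SOX2+ libraries.

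The Tet2 site at -4.69 kb, whose sequence is printed above, lies in a merged region with SOX2 and GATA6 in different populations. Its GATA6 maxima lay at -4.69 to -4.73 kb, inside the printed bases, and its SOX2 maxima at -4.99 to -5.06 kb, outside them. The SOX2 peak of NACL clone B12 overlapped no GATA6 peak, so the factors are neighbours in this region and not at 1 summit. SOX2 was found in the region in 2 of 2 2iLIF and 2 of 2 NACL libraries and in no SOX2+ or DP library. GATA6 was found in 2 of 3 DP and 1 of 2 nEnd libraries. It was the only GATA6 region of the Tet2 window, and H3K4me1 covered it in both 2iLIF, the DP and both nEnd libraries.

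GATA6 at Tet1 was strongest 1.74 kb into the gene in DP cells and 53.9 kb into it in nEnd. The region at chr10:62907062-62907516 held GATA6 in 3 of 3 DP libraries, at ranks 305 of 1391, 410 of 8316 and 625 of 3821, and in both nEnd libraries at ranks 11832 of 32510 and 14495 of 24223, with SOX2 in none of 10 libraries. The locus percentile of Tet1 for GATA6 was 95.1, 96.8 and 97.6 in DP cells, while neither nEnd library kept a peak. With all peaks used nEnd stood at 67.6 and 77.9. Because the gene entered the comparison through its DP peaks alone, the lack of overlap (exact permutation p = 0.2, the smallest that 3 against 2 can give) is a description. Groups did not overlap with DP higher at 41.9% of 2876 genes, beside 1 of the 2 genes of the families that could be tested, Dnmt3b and Tet1. H3K27ac was found at this site in every 2iLIF, NACL, SOX2+ and DP library and in neither nEnd library, and H3K4me1 in 8 of 9 libraries with a population.

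SOX2 sites inside Tet1 lay further along the first part of the gene. SOX2 was found at 11.9 kb in all 7 pluripotent libraries, and at 10.49 and 15.89 kb in 6 of 7 each, and in no DP library. H3K27ac covered all 3 sites in every 2iLIF, NACL, SOX2+ and DP library. The site 53.9 kb into the gene held GATA6 in 1 of 3 DP and 2 of 2 nEnd libraries, in nEnd at ranks 3703 of 32510 and 6079 of 24223.

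**Figure D4:**
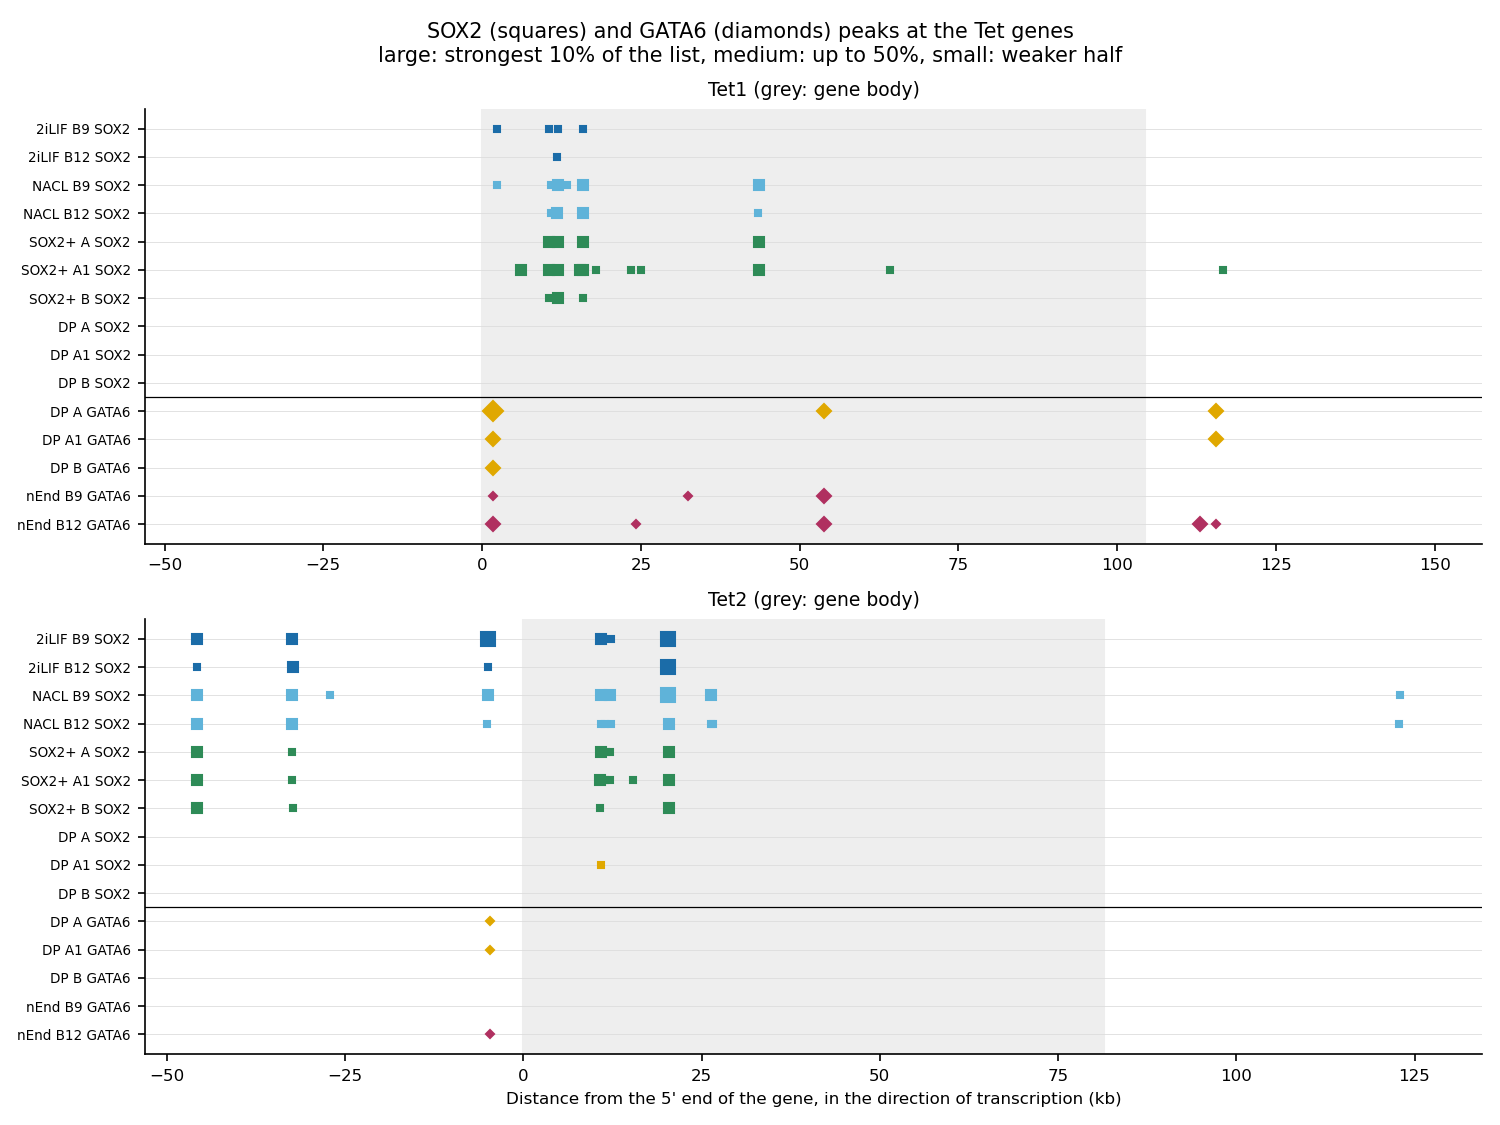
Map of SOX2 peaks (squares) and GATA6 peaks (diamonds) at Tet1 and Tet2, with distance from the gene's start in kb on the horizontal axis and 1 row per library, coloured by population. Large symbols are in the strongest 10% of the library's list, medium symbols in the strongest 50%, small symbols are weaker, and the grey bar is the gene body. SOX2 rows of the 7 pluripotent libraries are filled at 11.9 kb in Tet1 and 20.3 kb in Tet2 where the 3 DP rows are empty, and all 3 DP GATA6 rows carry a symbol at 1.74 kb in Tet1, large in experiment A and medium in A1 and B.

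11 other genes of the DNA methylation pathway were scored in the same fit. They comprise the maintenance enzyme Dnmt1 with its partners Uhrf1, Uhrf2 and Hells, the methyltransferase Dnmt3c, the oxidation and repair genes Tet3 and Tdg, the methyl-binding domain gene Mbd3, and the regulators Prdm14, Zfp57 and Trim28. In nEnd against naive cells H3K27ac was higher at 1 of 11 and lower at 1 of 11, beside 18.8% and 18.4% of all genes tested. Uhrf1, which guides DNMT1 to newly copied DNA, was higher by 1.25 (adjusted p = 0.00233), and Hells, a chromatin remodeller needed for methylation, fell by 1.81 (adjusted p = 0.00233). Over all genes tested 15.4% were higher and 12.7% lower in H3K4me1 in nEnd, beside 1 and 2 of these 11. H3K4me1 was higher at Tet3 (1.48, adjusted p = 0.00442) and lower at Dnmt1 (-1.46, adjusted p = 0.00730) and at Tdg, the glycosylase that excises oxidised methylcytosine (-1.44, adjusted p = 0.00690). In SOX2+ cells 1 of 11 was higher in H3K27ac, beside 2.45% of all genes tested. This was Dnmt1 (1.29, limma adjusted p = 0.0426, but 1.07 and adjusted p = 0.0929 with the clone as a block). In H3K4me1 0 of 11 were higher by limma, beside 3.47% of all genes tested. At an unadjusted p under 0.05 there were 3 of 11, beside 22.8% of all genes tested. Dnmt3c shares the Dnmt3b window, so their values are not independent.

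Across the 18 histone libraries with a population, each mark centred on its own mean, the normal scores of Dnmt3b and Dnmt3l correlated most among pairs of the 5 genes (r = 0.668), followed by Dnmt3a and Dnmt3l (r = 0.552), and the other 8 pairs lay between -0.276 and 0.351. These values describe libraries that share populations and list lengths and carry no test. The genes on other chromosomes with the most similar pattern were Faf1 (r = 0.838) for Dnmt3a, Cux2 (r = 0.808) for Dnmt3b, Rufy1 (r = 0.857) for Dnmt3l, Hspb1 (r = 0.885) for Tet1 and Dbf4 (r = 0.895) for Tet2. For Tet2, Dbf4 was followed by Ncor1 (r = 0.879) and by Dppa3, a naive pluripotency marker (r = 0.857).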

How the data were processed

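CUT&RUN peak lists of 35 libraries (4 antibodies) were analysed. Per the submitters' processing notes and the study's methods, the authors used cutadapt 1.18 for trimming and Bowtie2 2.3.4.1 for alignment to mm10, followed by SAMtools 1.9, Picard 2.9.1, bedtools 2.27.1 and deepTools 3.2.0, and called peaks with SEACR against IgG, library by library. The deposited lists hold the total signal (column 4) and the maximum signal (column 5) of each peak. The scaling of signal between libraries is not stated in the sources used here, so signal was ranked within each library and never compared between them. The study's methods and the names of the lists give opposite SEACR stringencies for factors and marks, and lists were compared only within an antibody. Read depth is unknown, so no counting interval is given.

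Each protein-coding gene (GENCODE annotation of GRCm38, chromosomes 1 to 19 and X) received the highest maximum signal of a peak overlapping its body plus 50 kb by at least 1 bp, with libraries of an antibody held to equal peak numbers. Ranks were turned into percentiles and normal scores. Histone marks were tested with limma 3.58.1 (R 4.3.3, trend, Benjamini-Hochberg over all genes with a peak in at least 2 libraries, threshold 0.05), with naive cells as the mean of 2iLIF and NACL. SOX2 and GATA6 were tested with exact permutation tests over libraries, two-sided. SOX2 and GATA6 peaks of all libraries overlapping by at least 1 bp were merged into regions. Python 3.11.15, numpy 2.4.6, scipy 1.17.1 and matplotlib 3.10.9 were used, and both tests were tested on simulated data.

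Populations came from the sample labels. The medium of the NACL clone B12 SOX2 library was taken from its title, because its source name does not give one. The single DP library of each mark entered no test. Clones B9 and B12 pair 2iLIF, NACL and nEnd libraries as the same clonal lines. Their deviations from the population means correlated across genes at 0.141, 0.080 and 0.0372 for H3K27ac, 0.150 for H3K4me1 and 0.131 for SOX2, so the fit with clone as a block is printed where it changed a call. The genes, gene lists, regions and tests were chosen with earlier results of these data known. Named are all 5 genes, the pathway genes called, the genes with the highest correlation, the neighbours, the region with the most SOX2 plus GATA6 libraries at each gene and those with both factors in at least 2 DP libraries, and further regions chosen after their values were seen. Alternatives changed the window, the peak measure, the number of peaks, the filter, the overlap, the scale, the block and the libraries. Results of 1 listed item are not reported here.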

Additional observations from a re-analysis of the deposited data

Results flagged for a closer look

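2 histone libraries whose labels name both DP and SOX2+ cells entered no comparison, and each of the 5 genes had a kept peak in both. In the H3K27ac library the locus percentile was 55.6 for Dnmt3a, 67.7 for Dnmt3b, 89.7 for Dnmt3l, 89.7 for Tet1 and 98.5 for Tet2. In the H3K4me1 library it was 96.3 for Dnmt3a, 79.1 for Dnmt3b, 92.7 for Dnmt3l, 87.0 for Tet1 and 98.3 for Tet2. The endoderm markers had a median of 24.8 in the H3K27ac library, the level of genes without a kept peak, and 76.6 in the H3K4me1 library, and the pluripotency markers 92.3 and 98.1. No histone population had enough libraries for a test of single outlying libraries.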

How the results depend on the processing

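Each tested population had 2 histone libraries a mark, DP cells had 1, and each factor had 3 DP libraries. With these numbers and unknown read depth, small differences could not be detected, and a missed threshold does not show equal signal. Of 615 values of single genes under alternatives, 518 kept their direction and their side of the threshold, 41 lost a call, 19 gained one, 4 reversed and 33 changed sign with no call on either side. The cause of these changes was not tested.

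Reversed values were Dnmt3l H3K27ac in nEnd (-0.41 over the gene body plus 5 kb and -0.41 within 5 kb of the start site), Dnmt3l H3K4me1 in nEnd within 5 kb of the start site (-1.10) and Tet2 H3K4me1 in nEnd by total signal (-1.26, adjusted p = 0.0138).

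The number of the 5 genes called moved as follows. For H3K27ac in nEnd (3) it was 1 to 4 with 1 library left out and 2 by total signal, with all peaks, without the filter, on the percentile scale and at the start site. For H3K27ac in SOX2+ cells (1) it was 2 over the gene body plus 5 kb, 2 by total signal, 2 with all peaks, 3 without the filter, 0 with the clone block and 0 to 1 with 1 library left out. For H3K4me1 in nEnd (2) it was 1 over the gene body plus 5 kb, 0 at the start site, 1 with the clone block and 0 to 2 with 1 library left out. For H3K4me1 in SOX2+ cells (1) it was 0 without the filter, 0 on the percentile scale, 0 with the clone block and 0 with any library left out. NACL against 2iLIF gave 0 under every alternative in both marks. Over all genes the clone block took the H3K27ac calls from 886 to 107 in SOX2+ cells and from 16 to 0 in NACL against 2iLIF, and the H3K4me1 calls from 883 to 0 and from 77 to 0. Among the 5 genes and the called pathway genes it changed no call beyond those named in the report. Where a library left out leaves 1 in its population, that library is assumed to vary like the others.

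For SOX2 in DP against pluripotent cells (1 not overlapping) the number was 0 by total signal and 3 with all peaks. Without the shortest list it was 2. Over all genes tested groups did not overlap at 2267 of 15444 with all peaks and 3100 of 8243 without the shortest list. With 1 library left out the number was 1 to 2. It was 2 without SOX2+ A1, with Tet2 lower, or without DP B, with Dnmt3b lower. In these settings neither gene had a kept peak in a DP library, and several pluripotent libraries kept none either, so neither gives a direction. None of the 5 genes could be tested for SOX2 within 5 kb of the start site. Against SOX2+ cells alone groups did not overlap at 4602 of 12295 genes with all peaks and 4085 of 6771 without the shortest list. For DP against SOX2+ cells (1) the number was 0 by total signal, 3 with all peaks and 3 without the shortest list. With 1 library left out it was 1 to 2. It was 2 without DP B, where Dnmt3b kept no peak in DP cells or in SOX2+ A and so has no direction. With the experiment (A, A1, B) as the replicate block it was 2, Dnmt3b and Dnmt3l (exact sign-flip p = 0.25, the smallest possible), but in pair A neither library kept a Dnmt3b peak, so that pair gives Dnmt3b no direction. Deviations of paired libraries correlated at 0.0788 to 0.0971, under the 0.1 required here for using the pairing, and no label says what the experiments share. For GATA6 in DP against nEnd (1) the number was 2 by total signal, 2 with all peaks and 2 without the shortest list. With 1 library left out it was 1 to 2 (2 without nEnd B12). Over all genes tested these groups did not overlap at 7202 of 14606 with all peaks and 4605 of 5958 without the shortest list. By total signal that was 2043 of 2833 genes. Of merged regions with both factors (2), 0 remained in the stronger 50% of each list.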
